A study of Mus musculus with 2 samples.

Results

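Mitochondrial fatty acid oxidation was examined here through 8 genes: Cpt1a, Cpt2, Acadm, Acadl, Acadvl, Hadha, Hadhb and Etfdh. They were named as genes of the pathway by a rule that uses no measured value, though with earlier results of these data known, and 8 of 8 were found among the 31053 genes of both count matrices. Their UMIs (unique molecular identifiers, which mark single captured RNA molecules) were summed over the nuclei of each cell class in each library.

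Nuclei were isolated from iWAT (inguinal white fat, which lies under the skin), dissected without its lymph node, of male C57BL/6-background mice given Western diet for 4 weeks. The study asked how the cells of iWAT change when adipocytes lose Lexis, a long noncoding RNA. The library labelled Lexis KO came from mice with floxed Lexis and an adiponectin-Cre transgene, which acts in adipocytes, and the library labelled Lexis WT from control mice with floxed Lexis and no Cre. Tissue of 3 mice was pooled for each library, and there was 1 library per genotype. There is therefore no replicate and no test, and every interval given is a 95% interval that covers counting error only and not the spread between mice or preparations.

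In both cases the file name and the sample label give opposite genotypes. Counts of Lexis were not analysed here as a check, so the libraries are called by their labels, and every direction below holds for the labels as given.

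In the mitochondrial pathway, long-chain acyl groups are first carried across the mitochondrial membranes on carnitine. Acyl-CoA dehydrogenases then begin each round of shortening, the trifunctional protein carries out the later steps on long chains, and the electrons pass by way of electron-transferring flavoprotein to the respiratory chain. White adipocytes mainly store and release fatty acids, whereas brown and beige adipocytes burn them to make heat.

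The filters left 3503 and 2852 nuclei in the WT-labelled library and the KO-labelled library, with medians of 1195 and 3879 UMIs. Clusters were named from marker genes. Adipocyte-like nuclei numbered 417 (cluster 4) in the WT-labelled library and 894 (889 of them in cluster 1) in the KO-labelled library, with medians of 3643 and 7848.5 UMIs and totals of 1944364 and 8642341 UMIs. Each of the 10 adipocyte markers, among them Adipoq and Plin1, was detected in the adipocytes of both libraries, and their summed level was 7842 and 10884 CPM (counts scaled to 1000000 UMIs of the class). ASPC-like nuclei (adipogenic stem and precursor cells) numbered 300 and 786, myeloid-like nuclei 332 and 838, lymphocyte-like nuclei 2100 and 107, and endothelial-like nuclei 94 and 122. Different clusters held most ASPCs (8 in the WT-labelled library, 5 and 6 in the KO-labelled library), myeloid nuclei (7, then 3 and 9) and lymphocytes (0 and 2, then 14 and 17) of each library, while endothelial nuclei of both lay in cluster 10. Myocyte-like nuclei were 52 of the KO-labelled library and 0 of 3503 of the WT-labelled library. Of the 8 genes, 0 were among the 2000 variable genes used for clustering, and none was a marker. The libraries shared 12 of 5000 barcodes each.

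Free RNA in the droplets can give UMIs in nuclei that do not express a gene. In lymphocytes the summed adipocyte markers were at 576 CPM in the WT-labelled library and 1024 CPM in the KO-labelled library. For the 8 genes together there were 3.79 UMIs per adipocyte nucleus and 0.552 per lymphocyte nucleus in the WT-labelled library, the latter being 14.5% of the former. The KO-labelled library had 6.35 and 0.916, or 14.4%. Lymphocytes also express genes of fatty acid oxidation, and their own and free RNA were not separated. In adipocytes the markers of 4 other classes were lower in the KO-labelled library, those of mural cells were close (131 and 128 CPM) and those of myocytes higher (19.5 and 90.6 CPM). The summed levels were 359 and 14.8 CPM for lymphocytes, 1262 and 624 CPM for ASPCs, 713 and 400 CPM for myeloid cells and 118 and 66.0 CPM for endothelial cells, in the WT-labelled and the KO-labelled library. The part of these cells in the ratios between the libraries was not tested. With the UMIs per lymphocyte nucleus subtracted, the summed ratio of the 8 genes, 0.807, was 0.809. The subtraction could hardly move this sum, because it took a near-equal share from both libraries. By gene, the log2 ratio went from 0.68 to 1.03 for Cpt1a and from −1.18 to −1.65 for Acadvl. Those of Hadha and Etfdh went the other way, from −1.03 to −1.02 and from −0.17 to −0.11.

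Within each library, the 8 genes together were more abundant in adipocytes than in the other nuclei. The summed level was 814 CPM in adipocytes against 441 CPM in all other kept nuclei of the WT-labelled library, a ratio of 1.85 (interval 1.73 to 1.97). In the KO-labelled library these levels were 657 and 424 CPM, and the ratio was 1.55 (interval 1.48 to 1.62). Of the 8 genes, 4 reached a ratio of at least 2 in the WT-labelled library (Cpt2, Acadm, Hadha and Etfdh) and 2 in the KO-labelled library (Cpt2 and Acadm). Over all genes with at least 50 UMIs in the compared nuclei, 9.96% reached that ratio in the WT-labelled library and 13.6% in the KO-labelled library. On the log2 scale the members' median was 0.94 and 0.72, against −0.54 and −0.39 over all genes tested. The other nuclei were mostly lymphocytes (2100) in the WT-labelled library and mostly ASPCs (786) and myeloid nuclei (838) in the KO-labelled library. The summed ratios of the libraries thus have unlike denominators. Against these classes and endothelial nuclei singly, they ran from 1.43 (endothelial) to 2.02 (ASPCs) in the WT-labelled library. In the KO-labelled library they ran from 1.28 (endothelial) to 1.81 (ASPCs).

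Acadm, the medium-chain acyl-CoA dehydrogenase, stood above the other nuclei by 2.32 times in the WT-labelled library and 2.76 times in the KO-labelled library. Cpt2, which frees the acyl group from carnitine on the inner mitochondrial membrane, was higher in adipocytes by 2.02 and 2.08 times. Cpt1a, the outer membrane enzyme that loads acyl groups onto carnitine and the point at which malonyl-CoA slows the pathway, went the other way. It was lower in adipocytes than in the other nuclei in both libraries, with ratios of 0.589 (interval 0.402 to 0.845) and 0.380 (interval 0.327 to 0.439). Acadvl, the very-long-chain acyl-CoA dehydrogenase, did not differ beyond counting error in the WT-labelled library (ratio 1.29, interval 0.898 to 1.84) and was lower in adipocytes of the KO-labelled library (0.746, interval 0.561 to 0.991).

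Among the other classes Cpt1a was highest in myeloid nuclei. In the KO-labelled library it had 141 CPM there (389 UMIs), against 46.7 CPM in ASPCs, 47.7 CPM in lymphocytes (11 UMIs), 61.2 CPM in endothelial nuclei (15 UMIs) and 31.4 CPM in adipocytes. The myeloid interval, 127 to 156 CPM, lay above that of each of these classes. In the WT-labelled library myeloid nuclei had 32 UMIs (interval 34.2 to 70.7 CPM), and the levels were 35.9 CPM in lymphocytes, 24.7 in ASPCs, 23.9 in endothelial nuclei (4 UMIs) and 19.5 in adipocytes, and neighbours in this order had overlapping intervals. Cpt1a made up 86.5% and 89.4% of the summed Cpt1a and Cpt2 UMIs in myeloid nuclei of the WT-labelled library and of the KO-labelled library. In adipocytes it made up 44.7% (interval 33.9 to 55.9) and 42.5% (interval 38.7 to 46.5). This share of the carnitine palmitoyltransferase UMIs thus differed between these classes in both libraries, while its intervals overlapped between the libraries within each class.

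**Figure D1:**
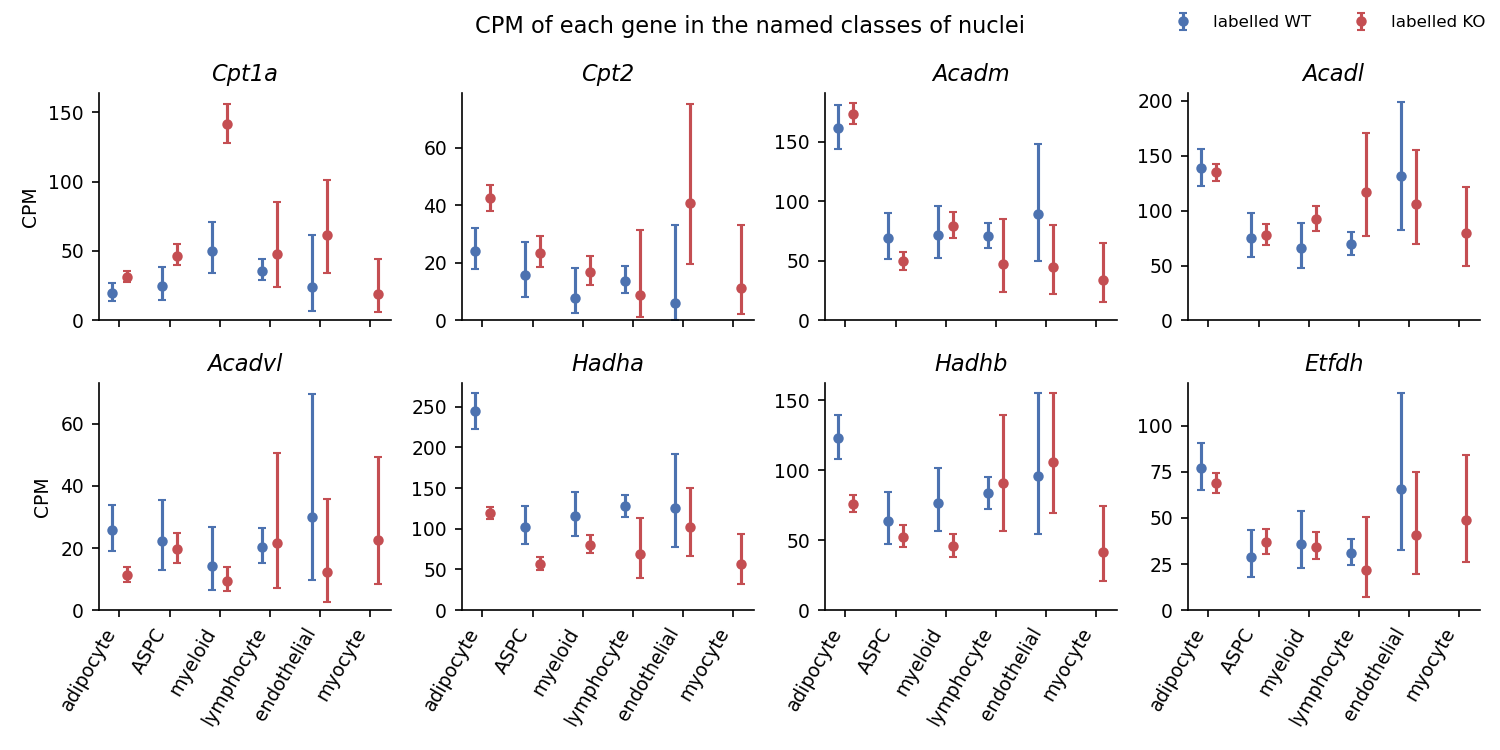
CPM of each of the 8 genes (a panel each, with its own vertical scale from 0) in 6 classes of nuclei of the WT-labelled library (blue) and the KO-labelled library (red). Points are the level of the summed counts and bars are exact Poisson 95% intervals. Acadm, Hadha and Etfdh stood highest in adipocytes of the WT-labelled library among its larger classes, and Cpt1a in myeloid nuclei of the KO-labelled library at 141 CPM. The WT-labelled library had no myocyte nuclei.

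Skeletal myocyte nuclei, a cell type that relies on fatty acid oxidation, were present in the KO-labelled library only, so they were set beside adipocytes of the same library. The 8 genes had 83 UMIs in 52 myocyte nuclei, or 314 CPM against 657 CPM in adipocytes, a ratio of 0.478 (interval 0.380 to 0.593). On the log2 scale the members' median was −0.82, against −0.56 over all genes tested, so genes at large were also lower. Of the 8 genes 1, Acadvl, had a ratio of at least 2, at 2.00 from 6 UMIs (interval 0.717 to 4.51), where 12.3% of all genes tested reached it. Acadm had 34.0 CPM in myocytes and 173 CPM in adipocytes, which is a ratio of 0.197 (interval 0.0897 to 0.374).

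Between the libraries, the trifunctional protein genes were lower and the carnitine palmitoyltransferase genes higher in adipocytes of the KO-labelled library. With counts scaled to the class total, Acadm, Acadl and Etfdh did not differ beyond counting error. Among nuclei with 3000 to 8000 UMIs the intervals of Cpt1a and Cpt2 included 1. That of Cpt1a also did after correction for intronic length and with mitochondrial genes and Malat1 left out of the totals. The summed level of the 8 genes was 814 CPM (1582 UMIs) and 657 CPM (5678 UMIs), a ratio of 0.807 (interval 0.764 to 0.854). This ratio was 0.985 under TMM scaling (trimmed mean of M-values, a factor from the weighted ratios of genes left after the extremes are trimmed) and 0.677 with mitochondrial genes and Malat1 left out of the totals. With both libraries integrated before clustering, so that adipocyte nuclei of both shared clusters, it was 0.819. Integration classed nearly the same nuclei as adipocytes (418 and 892) and left their counts as they were, so the ratio could change little. Of the 8 genes, 0 had a ratio of at least 2, where 26% of the 11350 genes with at least 50 adipocyte UMIs did. A ratio of at most 0.5 was found for 2 of the 8 genes, Acadvl and Hadha, and for 17.6% of those 11350 genes. Under TMM scaling 0 of the 8 passed this limit, with Acadvl at a log2 ratio of −0.89 and Hadha at −0.75, and after correction for intronic length Hadha alone did. The share of all genes past this limit was counted with scaling to the class total only, so these counts have no share beside them. On the log2 scale the members' median was −0.10 and that of all genes −0.01. Under TMM scaling both medians were higher, at 0.19 and 0.28, so that the median of all genes lay farther from 0, and without mitochondrial genes and Malat1 both were lower, at −0.35 and −0.26.

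**Figure D2:**
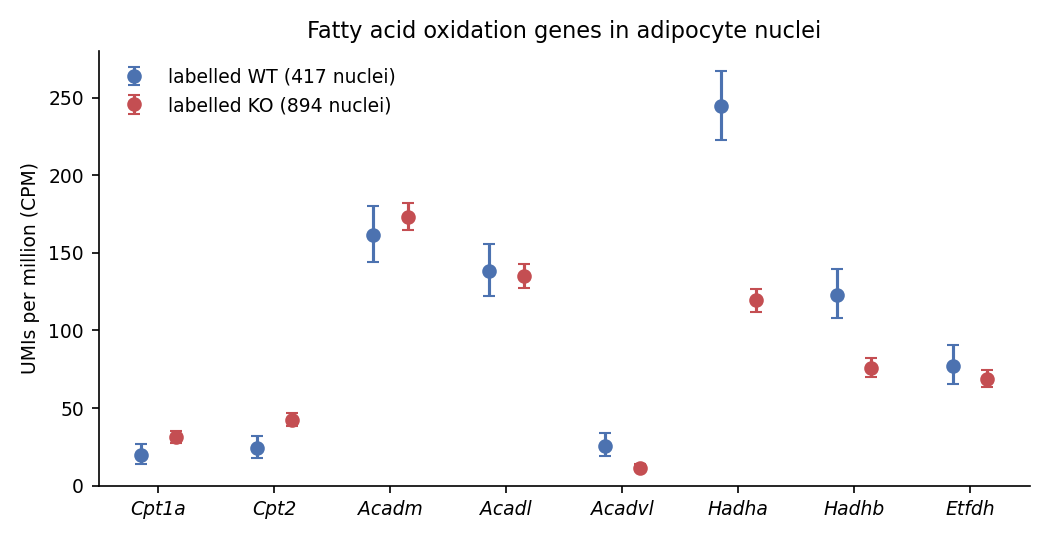
CPM of the 8 genes in the 417 adipocyte nuclei of the WT-labelled library (blue) and the 894 of the KO-labelled library (red). Points are levels of the summed counts and bars exact Poisson 95% intervals. The intervals of Acadm, Acadl and Etfdh overlapped between the libraries, while Hadha stood at 244 and 119 CPM.

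Hadha and Hadhb encode the alpha and beta subunits of the trifunctional protein. Hadha had 475 UMIs in adipocytes of the WT-labelled library, or 244 CPM, and 1031 UMIs in the KO-labelled library, or 119 CPM. Its ratio was 0.488 (interval 0.438 to 0.546), and it was the gene of the 8 whose interval lay farthest from 1. Per adipocyte nucleus the counts were close to each other, at 1.14 and 1.15 UMIs, beside median totals per nucleus of 3643 and 7848.5 UMIs. Hadhb had 123 CPM (239 UMIs) and 75.9 CPM (656 UMIs), a ratio of 0.618 (interval 0.532 to 0.719). Both genes kept the same direction under each of the 10 other settings tried, some of which used nearly the same nuclei. Their log2 ratios ranged from −1.29 to −0.75 for Hadha and from −0.95 to −0.41 for Hadhb. Hadha made up 66.5% of the UMIs of the pair in adipocytes of the WT-labelled library (interval 62.9 to 70.0) and 61.1% in the KO-labelled library (interval 58.7 to 63.4).

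The lower Hadha level was not particular to adipocytes. The ratio of the KO-labelled library to the WT-labelled library was 0.555 in ASPCs (interval 0.424 to 0.731), 0.696 in myeloid nuclei (interval 0.533 to 0.918) and 0.545 in lymphocytes (interval 0.308 to 0.898). In endothelial nuclei it was 0.813, with an interval from 0.437 to 1.53. The level in adipocytes over that in ASPCs of the same library was 2.38 (interval 1.87 to 3.06) in the WT-labelled library and 2.09 (interval 1.79 to 2.46) in the KO-labelled library. Median depth was higher in the KO-labelled library in each of these classes, and with 1 library per genotype, genotype and depth cannot be told apart. With adipocyte nuclei limited to 3000 to 8000 UMIs the Hadha ratio was 0.524 (interval 0.442 to 0.622), close to that over all adipocyte nuclei. With nuclei thinned to 1000 UMIs and averaged over all possible thinnings, the share of ASPCs with a Hadha UMI was 9.48% and 5.42%, a difference of −4.06 percentage points (interval −8.53 to −0.314). The interval of this difference included 0 in myeloid nuclei (−3.13 points) and in lymphocytes (−4.63 points). Hadhb was lower in myeloid nuclei, at 0.597 (interval 0.426 to 0.848), and had intervals that include 1 in ASPCs (0.823), lymphocytes (1.09) and endothelial nuclei (1.11).

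Hadha and Hadhb lie head to head on chromosome 5, and their 250 bases upstream of the start are shown because these windows overlap. Those of Cpt2, which was higher in adipocytes of the KO-labelled library, are given for comparison. Whether the shared stretch has a part in the levels of the pair was not tested. Sequences are from RefSeq (GRCm38.p6, the assembly also called mm10) and read 5′ to 3′ on each gene's own strand, and capitals mark matches to the GC box GGGCGG on either strand.
Hadha (chr5:30154981-30155230, minus strand): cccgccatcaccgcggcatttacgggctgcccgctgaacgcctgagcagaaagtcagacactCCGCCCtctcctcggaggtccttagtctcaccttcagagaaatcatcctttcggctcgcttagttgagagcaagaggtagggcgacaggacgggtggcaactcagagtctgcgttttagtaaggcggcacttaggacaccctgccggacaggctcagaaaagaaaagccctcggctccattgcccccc
Hadhb (chr5:30155003-30155252, plus strand): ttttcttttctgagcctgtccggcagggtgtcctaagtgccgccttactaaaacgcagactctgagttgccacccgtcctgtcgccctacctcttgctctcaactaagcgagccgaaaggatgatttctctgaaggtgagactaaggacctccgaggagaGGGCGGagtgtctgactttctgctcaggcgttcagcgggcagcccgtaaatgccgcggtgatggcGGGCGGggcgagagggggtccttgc
Cpt2 (chr4:107923590-107923839, minus strand): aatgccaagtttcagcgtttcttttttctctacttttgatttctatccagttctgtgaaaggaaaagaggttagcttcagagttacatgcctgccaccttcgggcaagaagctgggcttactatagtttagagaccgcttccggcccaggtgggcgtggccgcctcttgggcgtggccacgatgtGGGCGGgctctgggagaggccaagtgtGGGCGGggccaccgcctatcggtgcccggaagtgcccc
The start sites of Hadha and Hadhb lie 273 bases apart, and their windows share 228 bases (chr5:30155003-30155230) read in opposite directions. A GC box was found in the windows of 5 of the 8 genes (Cpt1a, Cpt2, Acadl, Hadha and Hadhb) and in 32.7% of the 32851 promoter windows of the RefSeq table cut to the same length. The CCAAT box (CCAAT, either strand) was found in 2 of the 8 (Cpt1a and Etfdh) and in 33.8% of all windows. AGGTCA, the half-site bound by many nuclear receptors, was found in 3 of the 8 (Cpt1a, Acadm and Acadvl) and in 14.0% of all. The estrogen-related receptor element TCAAGGTCA was found in 0 of the 8 and in 0.387% of all. AGGTCA lies inside TCAAGGTCA, so these counts overlap. The match of Hadha lies within the bases shared with Hadhb and is also 1 of the matches of Hadhb, so these windows are not independent. A match describes the letters of the window and not the binding of a factor.

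Of the carnitine palmitoyltransferase genes, Cpt1a had 19.5 CPM (38 UMIs) and 31.4 CPM (271 UMIs) in adipocytes, a ratio of 1.60 (interval 1.14 to 2.32). Cpt2 had 24.2 CPM (47 UMIs) and 42.3 CPM (366 UMIs), a ratio of 1.75 (interval 1.29 to 2.43). Cpt2 kept its log2 ratio of 0.81 within its interval under each of the 10 other settings, whereas that of Cpt1a, 0.68, was 0.15 (interval −0.34 to 0.68) after correction for intronic length, within counting error of 0. Without mitochondrial genes and Malat1 that of Cpt1a was 0.43, also with an interval that included 0. Among nuclei with 3000 to 8000 UMIs both intervals included 0, with log2 ratios of 0.63 for Cpt2 and 0.16 for Cpt1a. Cpt1a also was higher in other classes of the KO-labelled library, with ratios of 1.89 in ASPCs (interval 1.17 to 3.23) and 2.82 in myeloid nuclei (interval 1.97 to 4.18). In lymphocytes (1.33) and endothelial nuclei (2.56) its interval included 1. The correction for intronic length was made in adipocytes only, so the ratios in these classes are uncorrected. ASPCs and myeloid nuclei of each library also lay mostly in different clusters. In lymphocytes the UMIs of Cpt1a per nucleus were 48.1% of those in adipocytes in the WT-labelled library and 33.9% in the KO-labelled library.

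The acyl-CoA dehydrogenases differed in how they compared. Acadm had 161 CPM (314 UMIs) and 173 CPM (1496 UMIs), a ratio of 1.07 (interval 0.948 to 1.21). Acadl, the long-chain enzyme, had 138 CPM (269 UMIs) and 135 CPM (1166 UMIs), a ratio of 0.975 (interval 0.853 to 1.12). The sign of both depended on the scaling, as Acadm had a log2 ratio of 0.39 (interval 0.21 to 0.57) under TMM scaling and −0.15 (interval −0.33 to 0.03) without mitochondrial genes and Malat1. For Acadl these were 0.25 (interval 0.06 to 0.45) and −0.29 (interval −0.48 to −0.09). Acadvl had 25.7 CPM (50 UMIs) and 11.3 CPM (98 UMIs), a ratio of 0.441 (interval 0.311 to 0.633). With correction for intronic length its log2 ratio of −1.18 became −0.48 (interval −0.98 to 0.05), within counting error of 0, and in the KO-labelled library the UMIs per lymphocyte nucleus were 42.6% of those per adipocyte nucleus. In ASPCs (0.886), myeloid nuclei (0.670) and lymphocytes (1.07) the interval of its ratio included 1.

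Etfdh, which passes electrons from the flavoprotein to ubiquinone, had 77.1 CPM (150 UMIs) and 68.7 CPM (594 UMIs) in adipocytes, a ratio of 0.891 (interval 0.744 to 1.07). Its log2 ratio of −0.17 turned to 0.12 (interval −0.14 to 0.39) under TMM scaling and was −0.42 (interval −0.68 to −0.15) without mitochondrial genes and Malat1. Etfdh overlaps Ppid in the RefSeq annotation. Cpt1a overlaps Gm36532, Acadl overlaps Gm15793 and Gm27934, Acadvl overlaps Mir324 and Hadhb overlaps Mir1960. The deposited counts do not show how shared reads were treated.

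**Figure D3:**
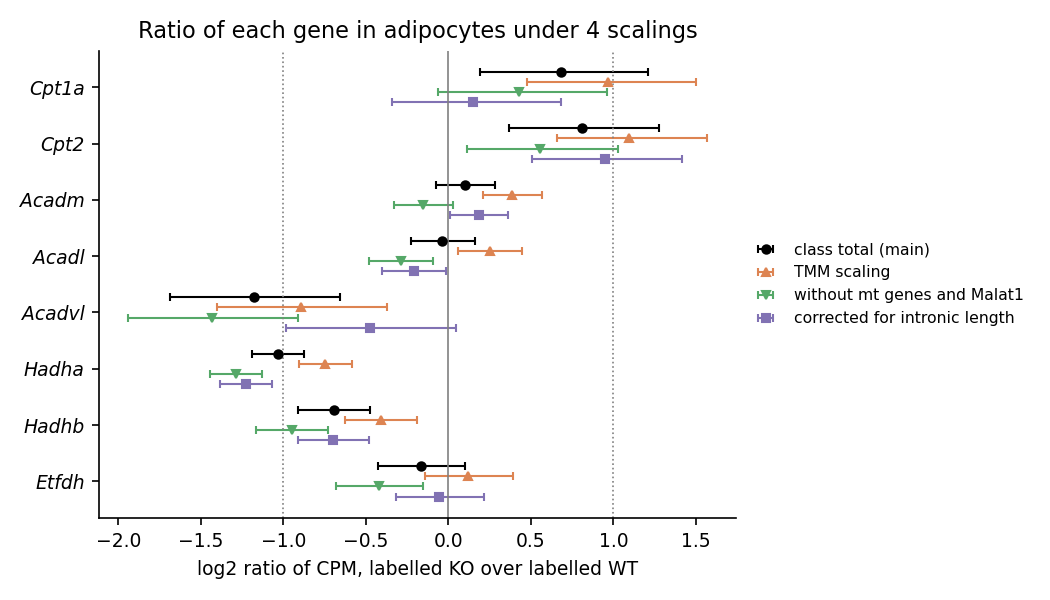
Log2 ratio of CPM in adipocytes, the KO-labelled library over the WT-labelled library, for each gene under 4 scalings (points), with exact conditional binomial 95% intervals (bars). The solid line marks no difference and the dotted lines a ratio of 2 or 0.5. Hadha and Hadhb lay below 0 and Cpt2 above 0 with their whole intervals under each of the 4 scalings, while Acadm, Acadl and Etfdh changed sign.

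The ratio depended on gene length over all genes, so each gene was read beside its intronic length. The median log2 ratio in adipocytes was −0.91 over 1223 genes with up to 3000 intronic bases and 1.39 over 1390 genes with over 100000. Acadvl, the shortest of the 8 with 2543 intronic bases, and Cpt1a, the longest with 58132, lay with their intervals on the curve over all genes. Hadha has 31521 intronic bases, where the curve was at 0.14, and its log2 ratio of −1.03 became −1.23 after correction. Hadhb, with 22751, stayed at −0.70, and Cpt2, with 17258, went from 0.81 to 0.95. After this correction the summed ratio was 0.792.

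**Figure D4:**
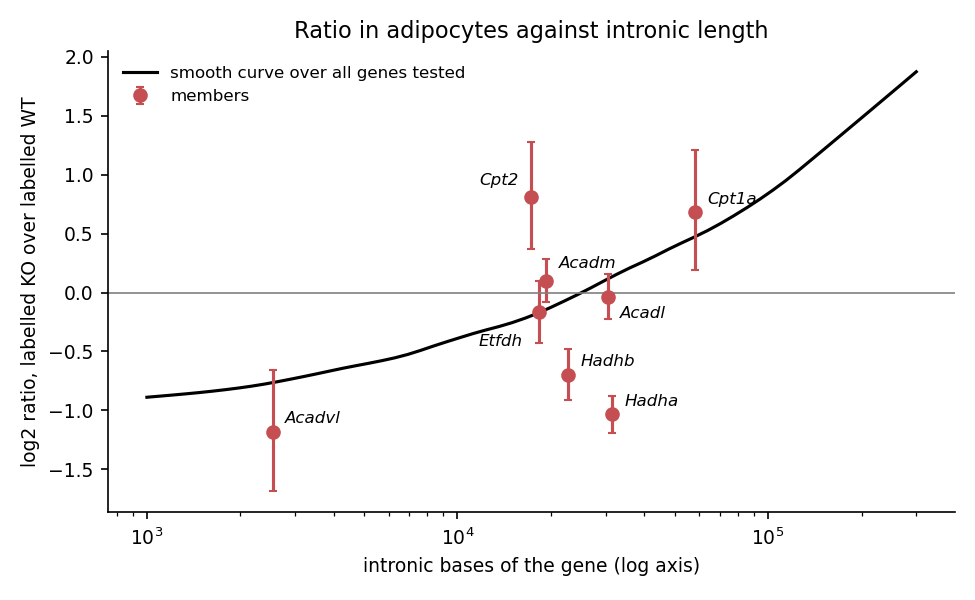
Log2 ratio in adipocytes (the KO-labelled library over the WT-labelled library) of the 8 genes against their intronic length in bases on a log axis. Points carry exact conditional binomial 95% intervals, and the line is the smooth curve over the 10469 genes tested that have a length. Hadha and Hadhb lay below the curve and Cpt2 above it beyond their intervals, Acadm lay just above it, and the intervals of the other 4 genes held it.

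The other classes were read by the same limits, without correction for intronic length. Of 8 genes with at least 50 UMIs over both libraries in ASPCs, 0 reached a ratio of 2 (24.9% of all genes there) and 0 a ratio of 0.5 or less (8.6%). In myeloid nuclei 7 genes were tested, of which Cpt1a and Cpt2, the latter from 5 and 46 UMIs with an interval that included 1 (0.852 to 6.88), reached a ratio of 2 (24.4% of all genes) and 0 a ratio of 0.5 or less (12.8%). In lymphocytes 0 of 7 genes reached either limit, against 16.1% and 20.1% of all genes. Summed ratios were 0.903 in ASPCs (interval 0.796 to 1.03), 1.14 in myeloid nuclei (280 and 1377 UMIs, interval 1.003 to 1.302) and 0.941 in lymphocytes (interval 0.758 to 1.16). In endothelial nuclei no member reached 50 UMIs.

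Detection in single nuclei was compared at full depth and at equal depth. At full depth 86.6% of adipocyte nuclei of the WT-labelled library and 94.1% of the KO-labelled library had a UMI of at least 1 of the 8 genes, with a median of 2 and 3 genes per nucleus. Each nucleus was then thinned to 1000 UMIs, which left out 10 and 5 nuclei. In 1 random thinning the shares were 50.4% (205 of 407) and 47.5% (422 of 889), a difference of −2.90 percentage points (interval −8.87 to 3.09). Averaged over all possible thinnings they were 53.7% and 46.5%, a difference of −7.14 (interval −13.1 to −1.14). The order of the shares thus turned from that at full depth. For Hadha the shares at full depth were 57.1% and 56.7%, and averaged over thinnings 21.8% and 11.7%, a difference of −10.1 points (interval −14.9 to −5.55). Averaged in the same way, the difference for Acadvl was −1.82 points (interval −4.13 to −0.0282). For Hadhb (−3.23 points, interval −6.98 to 0.161), Cpt1a (0.558, interval −1.58 to 2.29) and Cpt2 (1.77, interval −0.590 to 3.77) the interval in adipocytes included 0, as it did for Cpt1a in ASPCs (1.60, interval −1.41 to 3.87). For Cpt1a in myeloid nuclei the averaged shares were 5.35% and 12.0%, a difference of 6.70 points (interval 2.55 to 10.2). In lymphocytes at least 1 of the 8 genes was found, averaged over thinnings, in 34.7% and 35.0% of nuclei. Their median depths were 1008.5 and 2077 UMIs, and 1021 and 15 lymphocytes were left out.

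The adipocyte counts did not rest on few nuclei. The 3 nuclei richest in these genes held 56 of 1582 UMIs in the WT-labelled library and 172 of 5678 in the KO-labelled library, 91 of them in 1 nucleus, and the summed ratio without them was 0.801. Among adipocyte nuclei with 3000 to 8000 UMIs, 204 and 383 with medians of 4875 and 5605, the ratio of Hadhb was 0.686 (interval 0.542 to 0.872). In this range the intervals of Cpt1a (1.12), Cpt2 (1.55) and Acadvl (0.645) included 1. Adipocyte nuclei with a UMI of the thermogenic genes Ucp1, Cidea or Ppargc1a had more UMIs of the 8 genes per UMI than those without, with a ratio of 1.39 in the WT-labelled library (1043 against 748 CPM, 76 and 341 nuclei) and 1.26 in the KO-labelled library (761 against 602 CPM, 277 and 617 nuclei). Those nuclei were also deeper, with medians of 4865 against 3491 and 8634 against 7445 UMIs, and the part of depth was not tested. Not every gene followed the sum, as Hadhb in the WT-labelled library (0.975) and Cpt1a in the KO-labelled library (0.958) had ratios below 1. Their intervals included 1.

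The rest of the fatty acid oxidation machinery was read from 9 lists of 51 further genes, of which 47 had at least 50 adipocyte UMIs. A ratio of at least 2 was found for 13 of the 47 (26% of all genes) and a ratio of at most 0.5 for 5 (17.6% of all genes), with a median log2 ratio of 0.24. Under TMM scaling these counts were 16 and 2, and after correction for intronic length they were 13 and 6, with a median of 0.02. The shares of all genes hold for scaling to the class total and were not counted under these settings. From each list but that of ketone bodies, up to 2 genes with the largest and up to 2 with the smallest ratio are named.

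Of the electron transfer genes, Etfa, the alpha subunit of the flavoprotein that feeds Etfdh, had 86.9 and 247 CPM, a ratio of 2.84 (interval 2.43 to 3.34). Etfb, its beta subunit, had 66.3 and 35.2 CPM, a ratio of 0.530 (interval 0.430 to 0.657). The subunits of this protein thus differed in opposite directions, and their log2 ratios after correction for intronic length were 1.00 and −0.66. Etfbkmt, which methylates the beta subunit, had a ratio of 4.20. Among the later steps, Eci2 (3.16), an enoyl-CoA isomerase, and Acat1 (2.69), an acetoacetyl-CoA thiolase, were higher in the KO-labelled library, and Echs1 (0.437), the short-chain enoyl-CoA hydratase, was lower. Hsd17b10 had a ratio of 0.647 with an interval that included 1. Corrected for intronic length, the log2 ratios were 1.25 for Eci2, 1.34 for Acat1, −0.67 for Echs1, inside the lower limit, and 0.17 for Hsd17b10, whose direction turned.

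Of the other acyl-CoA dehydrogenases, Acad10 had 6.17 CPM (12 UMIs) and 99.2 CPM (857 UMIs), a ratio of 16.1 (interval 9.15 to 31.2), the largest of the 47. The 6 other genes of that list lay between ratios of 0.5 and 2, from Acad9 at 0.644 and Acad11 at 0.722 up to Acadsb at 1.43. After the intronic correction the log2 ratio of Acad11 was −1.23, beyond the lower limit, and that of Acad10 was 3.78. In the carnitine shuttle 0 of 3 genes tested passed either limit, which 26% and 17.6% of all genes did, and Cpt1b, the muscle isoform, was too low to test with 5 UMIs in each library. Slc25a20, the carrier of acylcarnitines across the inner membrane, had a ratio of 0.696, Crat 0.699 and Slc22a5, which takes up carnitine, 1.75. Among acyl-CoA synthetases 0 of 4 did, against the same shares, with Acsl4 at 1.45, Acsl5 at 0.921, Acsl3 at 0.896 and Acsl1 at 0.657. After the intronic correction the log2 ratio of Acsl1 was −1.11, beyond the lower limit, and that of Acsl4 turned to −0.08.

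In malonyl-CoA control, Acacb, the acetyl-CoA carboxylase at the mitochondrial surface, had 116 and 419 CPM, a ratio of 3.61 (interval 3.15 to 4.14). Acaca, its cytosolic relative, had a ratio of 1.29 and Mlycd, which removes malonyl-CoA, 0.842. Correction for intronic length turned the direction of Acaca, to a log2 ratio of −1.43, and left Acacb at 0.996, just under a ratio of 2, and Mlycd at −0.01. Of the 6 regulators, Ppara and Ppard, nuclear receptors for fatty acids, had the largest ratios, at 6.19 (13.4 and 82.7 CPM) and 6.84 (7.71 and 52.8 CPM), which corrected for intronic length were log2 ratios of 2.04 and 2.19. Ppargc1a (1.03) and Esrra (0.908) had intervals that included 1, and their corrected log2 ratios were −0.91 and 0.26, so that both turned direction. Of the ketone body genes, 3 of 3 tested had a ratio of at least 2 (26% of all genes). Among them Oxct1, which uses ketone bodies, had a ratio of 6.89 (interval 5.28 to 9.17) and a corrected log2 ratio of 1.69.

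Of the genes of peroxisomal oxidation, 2 of 10 had a ratio of at least 2 (26% of all genes) and 4 a ratio of at most 0.5 (17.6% of all genes). Hsd17b4 (4.34) and Ehhadh (2.41), multifunctional enzymes of the peroxisome, were higher in the KO-labelled library, with corrected log2 ratios of 1.53 and 1.24. Acox3 (54.0 and 16.2 CPM, interval of the ratio 0.231 to 0.390), an acyl-CoA oxidase, and Acaa1b (0.360), a thiolase, were lower. Acaa1b has a near-identical copy, Acaa1a (0.531), so reads of the pair can be divided between them.

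**Figure D5:**
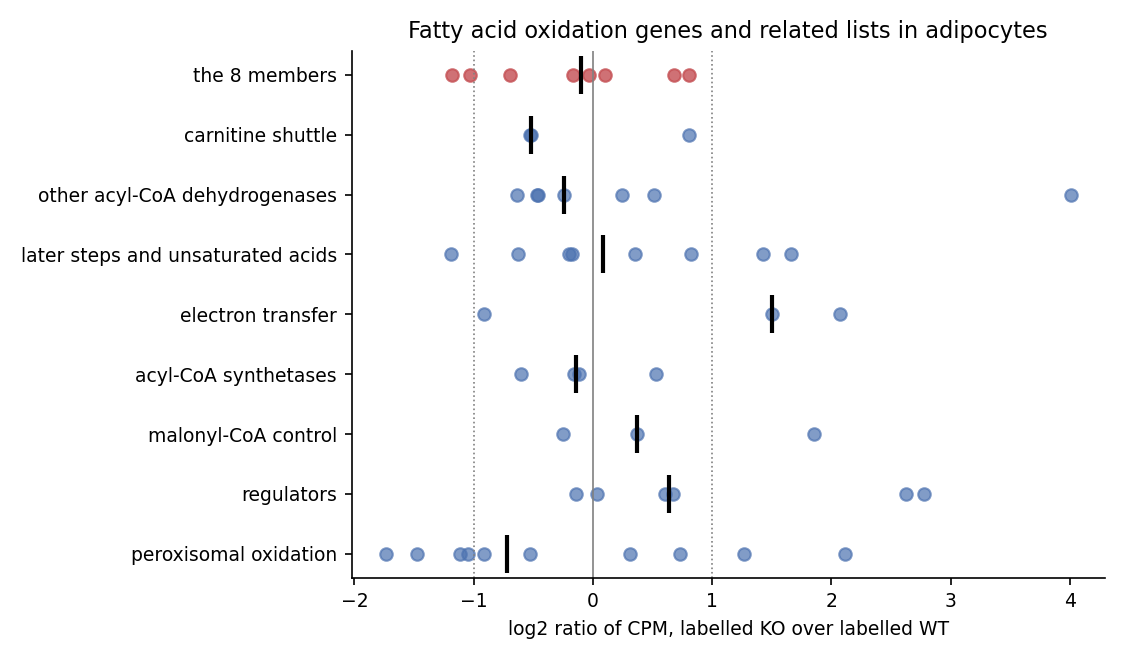
Log2 ratio of CPM in adipocytes, the KO-labelled library over the WT-labelled library, of the 8 genes (red) and of genes tested in 8 of the related lists (blue), 1 point per gene. Black ticks are medians and dotted lines mark ratios of 2 and 0.5. The 8 genes had a median of −0.10 and lay between −1.18 and 0.81, and Acad10 was the gene farthest to the right.

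Across the 11 sums of a named class and library with at least 50 nuclei, the summed level of the 8 genes was compared with each of 5639 other genes by Pearson's r of log2(CPM + 1). The closest patterns were those of Pnpla2 (r = 0.94), the triglyceride lipase, Cebpa (0.94), a transcription factor of adipocytes, Net1 (0.93), Ppp2r5a (0.92) and Mrps6 (0.92). Pnpla2 was also 1 of the adipocyte markers, and the 11 sums share libraries and depth, so these values are a description. Among the 8 genes, Acadm (0.87), Hadha (0.85) and Acadl (0.76) followed the sum to which they contribute, Hadhb (0.70), Etfdh (0.64) and Cpt2 (0.36) less closely, and Cpt1a and Acadvl had r of −0.09 each.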

How the data were processed

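Nuclei of iWAT were profiled with 10x Genomics 3' v3.1 chemistry. The authors deposited matrices of UMI counts, made with Cell Ranger 6.1.1 (per the file headers) and, per the submitters' processing notes, the build mm10 and Seurat 4. Whether intronic reads were counted is not given in the sources used here. The deposited counts summed to 9376351 (labelled WT) and 19655049 UMIs (labelled KO), over 5000 barcodes each.

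Barcodes with at least 500 genes and at most 5% mitochondrial UMIs were kept (3649 and 2944). Scrublet (scanpy 1.11.5) marked 0 and 92 doublets. As 0 is under 0.5%, the top 4% by score (146) were removed from the library labelled WT. Merged nuclei were clustered in Seurat 5.3.0 (R 4.3.3; 2000 variable genes, 20 components, 20 neighbours, resolution 0.5). A cluster was named when at least 3 markers of a class passed (5% of nuclei with a UMI, 2 times the mean of the other clusters), with a lead of 3. The clusters numbered 11 and 12 stayed unnamed.

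Counts were summed per class and library and scaled to CPM. Counts have exact Poisson intervals, shares Clopper-Pearson intervals, ratios exact conditional binomial intervals, and differences of shares combine both exact limits. Comparisons over all genes left out mitochondrial genes and those under 50 UMIs. Intronic lengths came from GENCODE gene models of NCBIM37 (lengths only, matched by gene ID), with a lowess curve (fraction 0.3). TMM used edgeR 4.0.16. The ratio step was tested on simulated data. Named genes are the 8 members, up to 2 largest and 2 smallest ratios per list, and the 5 closest patterns. The rule for the members uses no measured value, but members and lists were chosen with earlier results of these data known. Results of some genes of these lists are not reported here.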

Additional observations from a re-analysis of the deposited data

Results flagged for a closer look

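Mural and unnamed nuclei entered the comparisons only within all other kept nuclei, and the 8 genes were detected there above the limit of 3 UMIs set by a count of 0. The unnamed nuclei of the WT-labelled library (250) held 202 summed UMIs, or 389 CPM (interval 337 to 447), and the 9 of the KO-labelled library held 5. Mural nuclei of the WT-labelled library (10 nuclei) held 15 summed UMIs, or 1060 CPM (interval 593 to 1748), which overlaps the interval of its adipocytes at 774 to 855 CPM. Those of the KO-labelled library (44 nuclei) held 67, or 478 CPM (interval 370 to 607).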

How the results depend on the processing

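The summed ratio of 0.807 became 0.985 under TMM scaling and 0.677 with mitochondrial genes and Malat1 left out of the totals, and the median log2 ratio of −0.10 became 0.19 and −0.35. Under the same settings the all-gene median moved by as much, so that the distance between both medians did not change, by construction. With other minimums the distance of the members' median from the all-gene median, −0.09, was −0.05 (10 UMIs), −0.29 (200 UMIs) and −0.20 (any UMI), as the all-gene median became −0.05, 0.19 and 0.10. The 8 other settings left the summed ratio between 0.788 and 0.819. Under TMM scaling 2 genes of the related lists, not 5, had a ratio of at most 0.5. The share of all genes past that limit was not counted under TMM scaling, which also raised the all-gene median, to 0.28. The difference in detection of the 8 genes among adipocyte nuclei, −2.90 points in 1 thinning to 1000 UMIs, was −9.11 at 500 UMIs, −5.23 at 2000 UMIs, −10.5 with at least 1000 genes per nucleus, −7.21 with doublets kept and −7.14 averaged over all thinnings. The last setting, the leaving out of the richest nuclei and the range of 3000 to 8000 UMIs were added after seeing the data. Of the 10 settings tried for each gene, all kept the direction of Cpt1a, Cpt2, Acadvl, Hadha and Hadhb, and 9 that of Acadm, Acadl and Etfdh. These settings are not independent. Resolution 0.2 (418 and 894 adipocyte nuclei) and integration (418 and 892) used nearly the nuclei of the main run, so they could change little. With 1 library per genotype, effects of genotype, pooling, preparation and depth cannot be told apart, and Cpt1a, Cpt2 and Acadvl rest on 38 to 50 UMIs in adipocytes of the WT-labelled library. No paired analysis was possible because each genotype has 1 library.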

Other observations

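Acad10 was chosen for a second look after its values in adipocytes had been seen. It was higher in the KO-labelled library in each of 4 classes. In ASPCs it had 2 and 94 UMIs (2.60 and 28.4 CPM, a ratio of 10.9, interval 2.93 to 91.3). In myeloid nuclei it had 2 and 57 UMIs (a ratio of 6.61, interval 1.75 to 55.9), and in lymphocytes 17 and 9 UMIs (6.63 and 39.0 CPM, a ratio of 5.89, interval 2.31 to 14.0). The cause was not tested.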
